A study of Homo sapiens with 6 samples.

Results

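A set of genes that act at the end of the Wnt pathway was examined in RKO cells with wild-type or knocked-out GSK3B: the TCF/LEF transcription factors TCF7, LEF1, TCF7L1 and TCF7L2, the TLE corepressors TLE1, TLE3 and TLE4, and the coactivators BCL9, BCL9L and PYGO2. They were chosen by gene symbol, and all 10 were found among the 28278 symbols of the count tables. For a difference in messenger RNA level between the genotypes, 0 of the 9 with enough counts to test passed. Of all tested genes 13.5% passed, and whether 0 of 9 departs from that share was not tested. The 9 estimates ran from -0.17 for TLE4 to 0.14 for TCF7L2 on the log2 scale. Their intervals still allow a fall of TLE4 to 76.3% and a rise of TCF7L2 to 125% of wild type, so equal levels are not shown.

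The series holds 6 libraries of polyadenylated RNA from RKO, an established cell line of human colon carcinoma origin. In 3 of them GSK3B was wild-type and in 3 it was knocked out. The labels name no drug, time point or other treatment, and they leave out the method of knockout, whether 1 clone was used, and whether replicates came from separate cultures. The p-values thus reflect the spread of these libraries alone, part or all of which may be technical. The design text states the aim as the transcriptome change that follows the level of GSK3B.

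GSK3B encodes a kinase of the complex that phosphorylates beta-catenin and marks it for destruction. When that complex is held back, beta-catenin enters the nucleus and binds the N-terminus of TCF/LEF factors, which sit on DNA through an HMG box. Without beta-catenin these factors recruit TLE corepressors (the Groucho family), and with it they recruit BCL9 or BCL9L, which in turn bind Pygopus proteins. In intestinal epithelium TCF7L2 is the factor known for stem cell maintenance, while TCF7 and LEF1 are known both as mediators and as targets of Wnt signals. RKO carries no known truncating APC mutation, unlike most colon carcinoma lines.

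Total counts were 32379369 to 33558362 per library, and 14409 genes had enough counts to test. GSK3B itself had 99.0, 97.6 and 91.4 CPM in the wild-type libraries (replicates 1, 2 and 3, the order used throughout) and 46.0, 47.5 and 47.1 CPM in the knockouts. CPM are read counts scaled to a common library size, here with TMM factors. Every knockout library was lower, yet the transcript remained at 48.8% of the wild-type level (95% interval 45.4 to 52.4). Markers of colon epithelium were uneven: CDX2, VIL1, KRT8 and KRT18 were counted in every library, while CDX1, CDH1, CEACAM5 and HNF4A were listed at 0 in all 6. EPCAM fell, from 3.62, 4.28 and 2.40 CPM in wild type to 1.04, 1.06 and 1.11 CPM in knockout, the 1 marker called of 5 tested on that list. Of 9 T lymphocyte markers, looked at because T cells use TCF7 and LEF1, PTPRC, CD3E, CD3G, CD2 and CD28 were at 0 in every library. CD8A had 23, 23 and 23 counts in wild type and 6, 8 and 16 counts in knockout. It was the 1 marker of that list with enough counts to test and was not called. CD3D, CD4 and IL7R had at most 6 counts in any library. The summed level of that list was 0.795 to 0.942 CPM in wild type and 0.274 to 0.541 CPM in knockout. Of 8 fibroblast markers 0 were at 0 in all 6 libraries, and their sum was 2.37 to 6.16 CPM in wild type and 1.12 to 1.23 CPM in knockout. The 2 of them that could be tested were both called lower, while 7.18% of all tested genes were. PDGFRB, 1 of the 2, had 1.61, 2.14 and 2.01 CPM in wild type and 0.79, 0.56 and 0.78 CPM in knockout. COL1A1, the other, had 0.58, 0.40 and 1.83 CPM in wild type and 0.21, 0.31 and 0.36 CPM in knockout. Much of its difference came from wild-type replicate 3, with 61 counts against 19 and 13 in wild-type replicates 1 and 2. Wild-type replicate 3 had 25 counts of DCN, 23 of COL1A2 and 18 of COL3A1, where each other library had 2 or fewer of each. Whether RNA of other cells was present, and its part in the results, was not tested. Estimates without wild-type replicate 3 stand beside the results of TCF7, TLE3 and BCL9L, and not beside every gene in which that library stood out.

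Starts of the transcription units of these genes were taken from RefSeq. Their windows of 300 bases (250 before and 50 after each start, build GRCh38.p14) were searched for the TCF/LEF motif. The table of windows held 9 of the 10 genes, all but BCL9L, with 15 starts. The only LEF1 window, chr4:108166252-108166551 on the minus strand, lies inside the annotated gene, which begins at 108168956. The window of PYGO2 and the first of TCF7 also lie inside their genes. The outer ends of LEF1, PYGO2 and TCF7 were thus not searched. The spelling CTTTGAT was found on either strand in 0 of the 15 windows and in 2.62% of 35116 windows of all genes. After that, 4 spellings of the core were searched together on both strands (the core CTTTG followed by AA, by AT, by TA or by TT). They were found in 3 of the 15 windows (20.0%) and in 13.8% of all windows. The windows that hold one are shown 5′ to 3′ on the strand of the gene, with the motif in capitals. All 3 lie at starts inside the annotated gene, which gene-level counts cannot separate from the first start:
TCF7, internal start, chr5:134123368-134123667, plus strand: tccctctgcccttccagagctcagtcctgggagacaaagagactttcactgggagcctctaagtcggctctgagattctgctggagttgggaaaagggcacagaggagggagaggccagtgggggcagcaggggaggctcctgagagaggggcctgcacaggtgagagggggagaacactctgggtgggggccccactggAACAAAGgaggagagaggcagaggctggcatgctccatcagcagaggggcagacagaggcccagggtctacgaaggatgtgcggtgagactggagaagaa
TCF7L2, internal start, chr10:113126383-113126682, plus strand: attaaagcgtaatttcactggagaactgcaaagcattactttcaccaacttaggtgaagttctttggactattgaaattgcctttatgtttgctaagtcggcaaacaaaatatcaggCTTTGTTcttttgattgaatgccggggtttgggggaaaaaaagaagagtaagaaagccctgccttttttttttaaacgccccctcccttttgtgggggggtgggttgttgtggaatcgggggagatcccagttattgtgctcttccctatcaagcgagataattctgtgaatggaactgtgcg
TLE4, second listed start, chr9:79572927-79573226, plus strand: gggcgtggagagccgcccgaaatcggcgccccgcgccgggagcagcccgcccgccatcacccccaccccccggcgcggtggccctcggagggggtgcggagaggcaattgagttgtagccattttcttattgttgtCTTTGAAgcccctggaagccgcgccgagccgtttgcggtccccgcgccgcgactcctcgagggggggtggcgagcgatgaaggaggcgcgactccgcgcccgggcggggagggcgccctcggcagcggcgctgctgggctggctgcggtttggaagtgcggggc
In TCF7 the motif reads CTTTGTT on the opposite strand and begins at base -50 from the start. It begins at base -133 in TCF7L2 and at base -114 in TLE4. Such a match describes the letters and is not evidence of binding. Internal starts of TCF7 are known to give proteins without the N-terminal part that binds beta-catenin, and the counts do not show which transcripts were present.

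The TCF/LEF factors were present at unequal levels, and LEF1 was the highest in both genotypes. Levels are compared between genes as CPM per kb of the longest annotated transcript (GENCODE 29). LEF1 was highest, at 10.5 ± 0.40 CPM per kb in wild type and 9.88 ± 0.50 in knockout (SD, n = 3). TCF7 followed at 5.95 ± 0.29 and 5.36 ± 0.21, and TCF7L2 at 4.38 ± 0.25 and 4.83 ± 0.61. The SDs of TCF7 and TCF7L2 stayed apart in wild type and overlapped in knockout. With the union of exons as the length TCF7 was above TCF7L2 in wild type (3.16 and 2.69 CPM per kb) and below it in knockout (2.85 and 2.96). TCF7L1, the factor known mainly as a repressor, was near 0. Among 13815 tested genes with a length, the mean level of LEF1 stood at percentile 55.0, that of TCF7 at 38.6 and that of TCF7L2 at 33.9.

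TCF7 (chromosome 5, 134114711 to 134151865, plus strand, hg38), which encodes TCF-1, had the smallest p of the 10 genes but did not pass. It had 30.7, 31.0 and 33.6 CPM in wild type and 29.9, 27.9 and 28.2 CPM in knockout. All 3 knockout libraries lay below all 3 wild-type libraries, by the narrowest margin between wild-type replicate 1 and knockout replicate 1. The log2 fold change was -0.15 ± 0.07 (SE), or 90.1% of wild type with a 95% interval of 82.1 to 99.0, at an unadjusted p of 0.0308 and an adjusted p of 0.133 in edgeR's quasi-likelihood test. The exact permutation p, two-sided, was 0.1, which is the lowest that 3 against 3 libraries allow. Without wild-type replicate 3 the log2 fold change was -0.11, and with a correction for GC content it was -0.09 (edgeR, adjusted p = 0.292 and 0.283). TCF7 shares 210 exon bases with SKP1 on the opposite strand, a gene at 191 to 216 CPM that did not pass either.

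LEF1 (chromosome 4, 108047545 to 108168956, minus strand) had 35.1, 37.8 and 36.9 CPM in wild type and 32.7, 34.1 and 36.2 CPM in knockout. Knockout replicate 3 lay above wild-type replicate 1, so the groups overlapped. The log2 fold change was -0.09 ± 0.06 (edgeR, adjusted p = 0.355), at 93.8% of wild type with an interval of 85.8 to 103. LEF1-AS1, an antisense transcript that shares 279 exon bases with LEF1, had 2.49, 2.32 and 2.58 CPM in wild type and 1.74, 1.99 and 2.40 CPM in knockout (edgeR, adjusted p = 0.412). The strand setting of the counting is not given in the sources used here, so reads of the overlap cannot be told apart.

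TCF7L2 (chromosome 10, 112950250 to 113167678, plus strand) had 17.0, 19.0 and 18.3 CPM in wild type and 21.5, 17.1 and 21.4 CPM in knockout. Knockout replicates 1 and 3 were above every wild-type library, and knockout replicate 2 lay at the level of wild-type replicate 1. The log2 fold change was 0.14 ± 0.09 (edgeR, adjusted p = 0.312), at 110% of wild type with an interval of 97.3 to 125. The size moved with single libraries: without knockout replicate 2 the log2 fold change was 0.24 (edgeR, adjusted p = 0.110). Without wild-type replicate 1, knockout replicate 1 or knockout replicate 3 it was 0.09 (adjusted p = 0.545, 0.668 and 0.646).

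TCF7L1 (chromosome 2, 85133410 to 85310388, plus strand) had 2, 4 and 0 counts in wild type and 6, 6 and 2 counts in knockout. The summed counts, 6 and 14, have exact Poisson 95% intervals of 2.20 to 13.1 and 7.65 to 23.5, which overlap and cover counting error only. The gene did not reach the filter on low counts (at least 10 in enough libraries), and a difference was not detectable at this depth. In the fit with no filter beyond 1 count it did not pass (edgeR, adjusted p = 0.534). A count of 0 in 1 library allows up to 3 counts, or 0.0913 CPM.

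**Figure D1:**
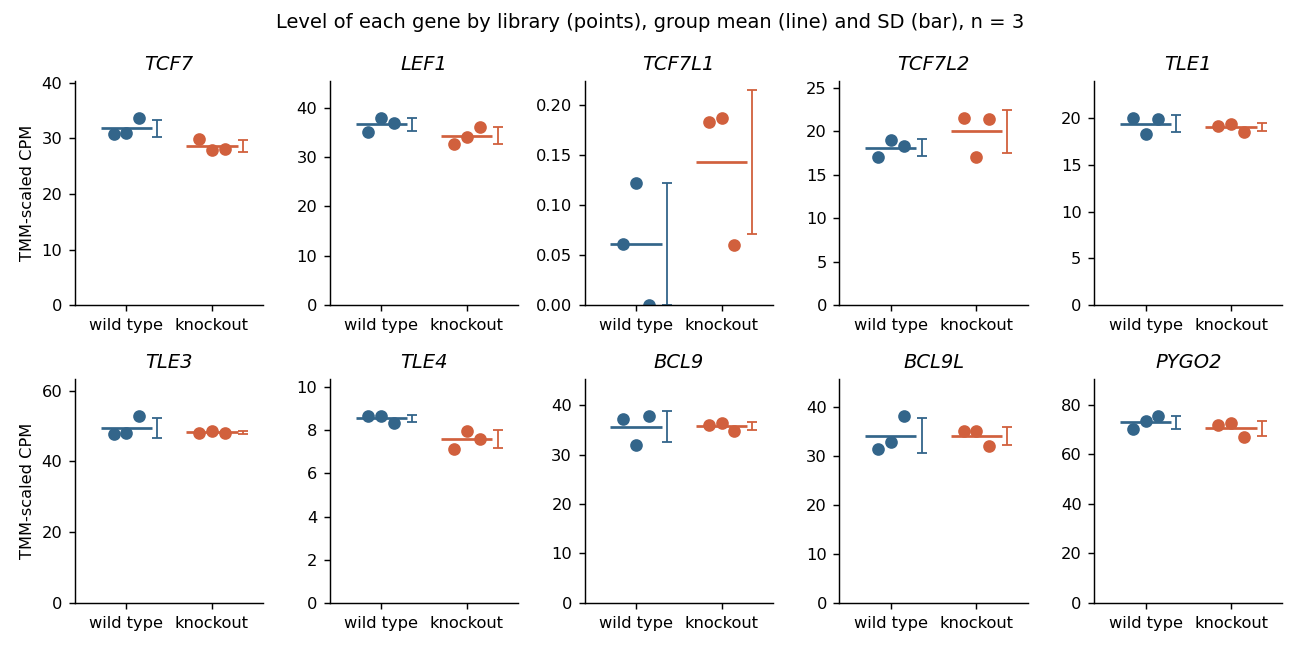
TMM-scaled CPM (y axis, from 0, with a separate scale for each gene) of the 10 genes in wild-type (blue) and knockout (orange) libraries. Points are libraries, lines group means and bars SD (n = 3). The groups do not overlap for TCF7 and TLE4 and overlap for the other 8 genes. Among all tested genes 31.3% do not overlap, 15.9% of them being lower in the knockout as a share of all tested genes.

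As parts of the summed TCF/LEF level per kb, LEF1 took about the same share in each library. It held 50.5%, 51.0% and 49.8% in wild type and 46.4%, 51.1% and 49.9% in knockout. The share of TCF7 was 28.8%, 27.2% and 29.5% in wild type and 27.6%, 27.1% and 25.3% in knockout. That of TCF7L2 was 20.6%, 21.6% and 20.8% in wild type and 25.6%, 21.5% and 24.8% in knockout, so knockout replicate 2 again stood with the wild-type libraries. The family total was 20.0, 21.3 and 21.3 CPM per kb in wild type and 20.3, 19.2 and 20.9 CPM per kb in knockout. With the union of all exons as the length, LEF1 held 53.8% in wild type and 52.3% in knockout, TCF7 24.9% and 23.3%, and TCF7L2 21.2% and 24.2%.

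**Figure D2:**
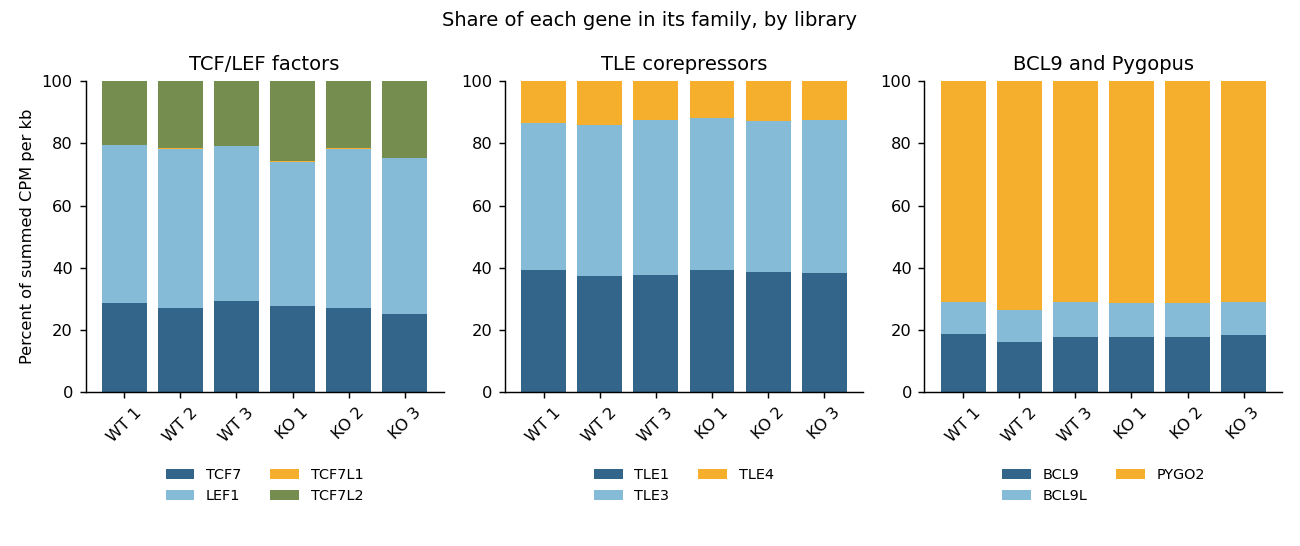
Share of each gene (y axis, percent of the summed CPM per kb of its family) in each of the 6 libraries (x axis, WT wild type, KO knockout). LEF1, PYGO2 and TLE3 hold the largest shares of their families in every library, and TCF7L2 takes 25.6% and 24.8% in knockout replicates 1 and 3 against at most 21.6% elsewhere.

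The TLE corepressors, which bind TCF/LEF factors and bring histone deacetylases to DNA, also did not pass. TLE4 (chromosome 9, 79571773 to 79726882, plus strand) was the lowest of the 3, with 8.66, 8.65 and 8.35 CPM in wild type and 7.16, 7.99 and 7.60 CPM in knockout. Each knockout library was below each wild-type library. The log2 fold change was -0.17 ± 0.11 (edgeR, adjusted p = 0.297), at 88.7% of wild type with an interval of 76.3 to 103. Its counts, 235 to 285 per library, were the fewest among the 9 tested members, and its interval was the widest of theirs on the log2 scale. TLE4 shares 253 exon bases with a processed pseudogene on the same strand that has no symbol in the tables.

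TLE1 (chromosome 9, 81583683 to 81689305, minus strand) had 20.0, 18.4 and 19.9 CPM in wild type and 19.2, 19.4 and 18.6 CPM in knockout. All its knockout values lay within the wild-type range. TLE3 (chromosome 15, 70047790 to 70098176, minus strand) had 47.8, 47.9 and 52.8 CPM in wild type and 48.0, 48.7 and 47.9 CPM in knockout. Only wild-type replicate 3 stood above the rest for TLE3, and without it the log2 fold change moved from -0.04 to 0.01 (edgeR, adjusted p = 0.702 and 0.937). TLE1 was at 98.2% of wild type (interval 88.2 to 109) and TLE3 at 97.3% (interval 89.8 to 105). Per kb of transcript, TLE3 and TLE1 stood at 6.34 ± 0.36 and 4.99 ± 0.23 CPM in wild type and TLE4 at 1.76 ± 0.04 (SD, n = 3). With the union of exons as the length, TLE1 and TLE3 were level at 3.96 and 3.92 CPM per kb, so the order of that pair rests on the transcript model.

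BCL9 and BCL9L, the paralogous adaptors between beta-catenin and Pygopus, were the genes closest to no difference. BCL9 (chromosome 1, 147541412 to 147626216, plus strand) had 37.2, 32.0 and 37.8 CPM in wild type and 36.1, 36.4 and 34.8 CPM in knockout. Its knockout libraries fell inside the wild-type range, which wild-type replicate 2 set at the low end. BCL9 was at 100% of wild type, with an interval of 91.2 to 110 (edgeR, adjusted p = 0.972). BCL9L (chromosome 11, 118893875 to 118925608, minus strand) had 31.5, 32.9 and 38.2 CPM in wild type and 35.2, 35.2 and 32.0 CPM in knockout, again inside the wild-type range. It was at 99.8% of wild type, with an interval of 90.1 to 111 (edgeR, adjusted p = 0.985).

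The estimate for BCL9L was sensitive to the correction for GC content, with 62.6% GC in its longest transcript, the highest among these 10 genes. The correction moved its log2 fold change from 0.00 to 0.11 (edgeR, adjusted p = 0.199). Without wild-type replicate 3, its highest library, it was 0.08 (edgeR, adjusted p = 0.423). BCL9L shares 3925 of its 10470 exon bases with CXCR5 on the opposite strand. CXCR5, a chemokine receptor gene known from B cells, was listed at 8.93, 9.60 and 10.8 CPM in wild type and 9.99, 9.26 and 8.17 CPM in knockout. In both genes wild-type replicate 3 was the highest library and reads of the overlap cannot be told apart.

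PYGO2 (chromosome 1, 154957026 to 154963853, minus strand), which encodes a Pygopus protein that reads methylated histone H3 through its PHD finger, had the highest level per kb of the 10 genes. It had 70.1, 73.3 and 75.3 CPM in wild type and 71.9, 72.5 and 66.8 CPM in knockout. Knockout replicate 3 lay below the other 5 libraries, while the rest overlapped. The log2 fold change was -0.05 ± 0.05 (edgeR, adjusted p = 0.559), at 96.5% of wild type with the narrowest interval of the set, 89.8 to 104. On the per-length scale PYGO2 stood at 23.2 ± 0.83 CPM per kb in wild type (SD, n = 3), at percentile 77.8 of tested genes. BCL9 was at 5.68 ± 0.51 and BCL9L at 3.42 ± 0.35 CPM per kb. PYGO1, its paralog, had 1 count in 1 wild-type library and 0 counts in the others. PYGO2 shares 335 exon bases with SHC1 on the same strand, a gene at 434 to 468 CPM, so reads of that overlap could have been assigned to either.

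Ordered by wild-type level per kb, the 10 genes ran PYGO2, LEF1, TLE3, TCF7, BCL9, TLE1, TCF7L2, BCL9L, TLE4 and TCF7L1. The SDs of TLE3 and TCF7 overlapped, as did those of TCF7 and BCL9 and those of BCL9 and TLE1. The other neighbours were further apart than their SDs. With the union of exons as the length BCL9 came after PYGO2 and LEF1, at 5.55 CPM per kb, and TCF7 fell below BCL9L, at 3.16 against 3.27, while PYGO2 and LEF1 kept the first places.

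In the comparison as a whole, 0 of the 9 tested members passed edgeR's quasi-likelihood test, where 13.5% of all tested genes did (1951 of 14409, 6.36% higher and 7.18% lower). DESeq2 and limma-voom also called 0 of the 9, beside 12.9% and 13.2% of the genes they tested, and edgeR after the GC correction called 0 beside 21.1%. Without adjustment, TCF7 was the 1 member with a p under 0.05 in edgeR. The groups did not overlap in 2 members, both lower in the knockout, beside 31.3% of all tested genes without overlap in either direction and 15.9% lower without overlap. Of the 9 estimates 2 were above 0 and 7 below. The median log2 fold change was -0.04, beside 0.00 over all tested genes, and the median size was 0.05, beside 0.10. The members and all tested genes were not matched for level, and the latter include genes under 1 CPM. In bulk RNA, fewer cells with a transcript and less of it per cell cannot be told apart. A p that misses the threshold does not show equal levels: the intervals allow a fall of TLE4 to 76.3% and a rise of TCF7L2 to 125% of wild type, and those of the other 7 stay between 82.1% and 111%.

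**Figure D3:**
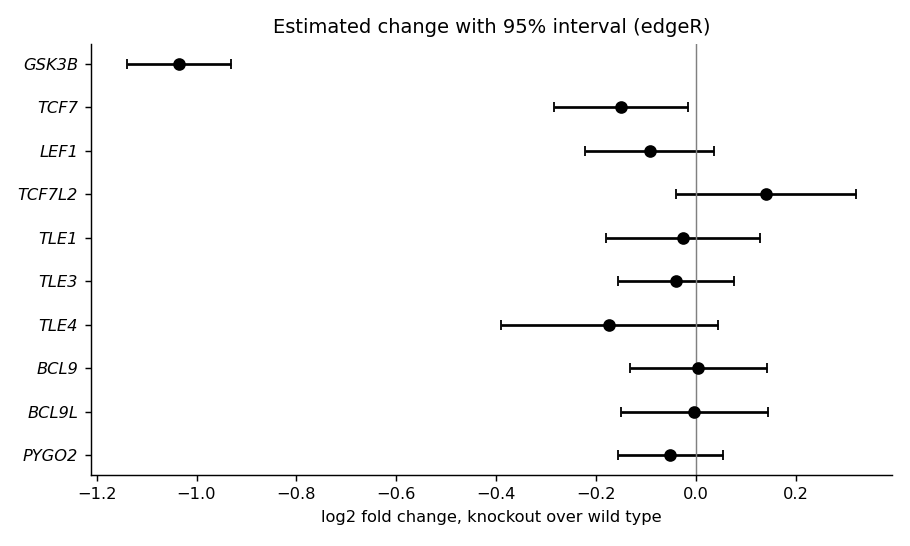
Log2 fold change of GSK3B and the 9 tested genes (x axis, knockout over wild type), with 95% intervals from edgeR's fit. GSK3B lies near -1.04, while the 9 genes lie between -0.17 and 0.14, and the interval of TCF7 alone among them leaves out 0 before adjustment.

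Other nuclear partners were read from lists of known coactivators and corepressors, chosen with earlier results of these data known. Of 15 tested coactivators and partners of beta-catenin 1 fell, 0 rose and 14 did not pass, so 6.67% were called beside 13.5% of all genes, with a median log2 fold change of 0.01. CTNNB1, which encodes beta-catenin itself, had 425, 441 and 409 CPM in wild type and 427, 421 and 433 CPM in knockout, at 101% of wild type (interval 95.7 to 106). The gene that fell was LDB1, a LIM-domain binding adaptor, from 89.7, 87.8 and 93.1 CPM to 80.5, 79.8 and 78.3 CPM (log2 fold change -0.18 ± 0.05; edgeR, adjusted p = 0.0104). Its groups did not overlap. LDB1 was not called after the GC correction, nor without knockout replicate 2 or 3. The GC correction called 4 other genes of this list, all higher: CREBBP, KMT2D, RUVBL2 and SMARCA4, named here after their values were seen. That fit called 21.1% of all tested genes, 1977 higher and 1066 lower.

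Of 20 tested corepressors and inhibitors 1 rose, 2 fell and 17 did not pass (15% called beside 13.5% of all tested genes, median -0.04). TLE6, a divergent member of the TLE family, had 6.59, 6.36 and 6.19 CPM in wild type and 4.26, 5.005 and 3.70 CPM in knockout. Each knockout library was below each wild-type library (log2 fold change -0.56 ± 0.13; edgeR, adjusted p = 0.00680), and TLE6 was called in each of the 16 alternative fits. CTNNBIP1, whose product ICAT blocks the binding of beta-catenin to TCF factors, had 13.9, 15.2 and 18.3 CPM in wild type and 12.9, 12.7 and 11.6 CPM in knockout (log2 fold change -0.35 ± 0.10 SE). Its groups did not overlap. Leaving out wild-type replicate 3, knockout replicate 2 or knockout replicate 3 ended its call. XIAP, a ubiquitin ligase known to act on TLE proteins, rose from 72.3, 75.0 and 70.8 to 84.6, 81.3 and 78.6 CPM (edgeR, adjusted p = 0.0262). XIAP was not called after the GC correction, nor when wild-type replicate 2, knockout replicate 1 or knockout replicate 2 was left out.

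Among the remaining TLE genes, named here for their family after their values were seen, TLE5 had 166, 176 and 182 CPM in wild type and 165, 171 and 152 CPM in knockout. TLE5 encodes a short TLE protein without the C-terminal WD repeats. TLE2 had 26.2, 28.9 and 32.3 CPM in wild type and 25.3, 26.4 and 28.5 CPM in knockout. For both genes the groups overlapped, at adjusted p = 0.145 and 0.294 in edgeR. TLE5 was called, lower, when wild-type replicate 1 was left out.

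Among known target genes of TCF/LEF with beta-catenin, 18 of 26 could be tested, and 8 fell, 0 rose and 10 did not pass. Thus 44.4% were called, while 7.18% of all tested genes were called lower. The median log2 fold change of the 18 was -0.18. The list was chosen with earlier results of these data known, so its share is a description and not an independent test. The largest called falls were those of BMP4, NOTUM, AXIN2 and NKD2. AXIN2, a feedback scaffold of the destruction complex, had 5.41, 5.50 and 5.07 CPM in wild type and 3.99, 4.10 and 2.52 CPM in knockout, without overlap. NKD2, an inhibitor of Dishevelled, had 12.2, 11.8 and 12.1 CPM in wild type and 9.26, 10.1 and 9.32 CPM in knockout (log2 fold change -0.33 ± 0.09; edgeR, adjusted p = 0.0207). NOTUM, a secreted enzyme that inactivates Wnt ligands, was listed at 2.07, 1.86 and 2.46 CPM and at 1.58, 1.24 and 1.11 CPM. BMP4, a secreted ligand, had 4.62, 4.003 and 2.25 CPM in wild type and 1.67, 1.68 and 2.10 CPM in knockout, where wild-type replicate 3 lay close to the knockout libraries. BMP4 was called in each of the 16 alternative fits, as were MYC, EPHB2 and NKD1 (log2 fold change -0.22, -0.32 and -0.32), named here after their values were seen. AXIN2 was not called without wild-type replicate 2 or knockout replicate 3, and NKD2 lost its call when wild-type replicate 2, knockout replicate 1 or knockout replicate 3 was left out, and after the GC correction. NOTUM was not called when any 1 library was left out, by DESeq2 or limma-voom, with the replicate block, without robust estimation, or after the GC correction. After the GC correction 5 targets fell and 1 rose, in a fit that called 1066 genes lower and 1977 higher. Without wild-type replicate 2, knockout replicate 1 and knockout replicate 3 the count of called targets was 5, 5 and 4. LGR5, ASCL2, DKK1, APCDD1 and MMP7 had at most 4 counts in any library, and DKK4 and TNFRSF19 were listed at 0; RNF43 was also below the filter.

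**Figure D4:**
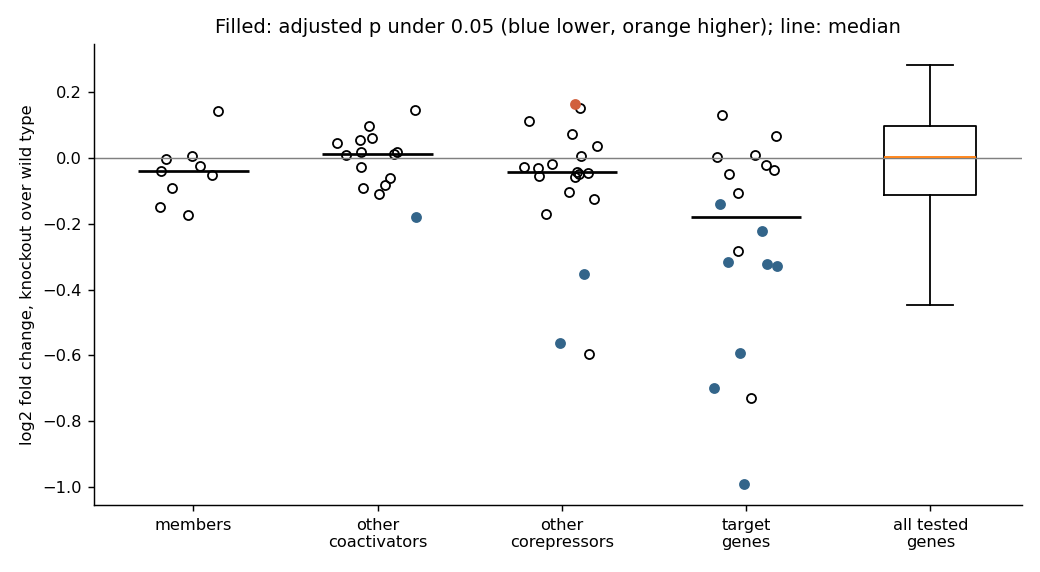
Log2 fold change (y axis, knockout over wild type) of the tested genes in each list, with filled points for an adjusted p under 0.05 and a line at the median. The box at the right gives the quartiles of all tested genes with whiskers at the 5th and 95th percentiles. The 9 members include 0 filled points and the targets 8, all below 0, while 13.5% of all tested genes were called.

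For TCF7, the member with the smallest adjusted p, the genes with the most similar pattern over the 6 libraries were FGFRL1, NDRG3 and MAPK3, with Pearson r of 0.997, 0.995 and 0.995 for log2 CPM among 11221 genes. All 6 points share their libraries and depth with TCF7, and the likeness is a description. FGFRL1, a receptor of the FGF receptor family, had 55.1, 55.3 and 61.9 CPM in wild type and 53.2, 49.2 and 49.6 CPM in knockout. Unlike TCF7, FGFRL1 and MAPK3 were called lower (edgeR, adjusted p = 0.0395 and 0.0378), while NDRG3 was not called (edgeR, adjusted p = 0.240). In these genes, as in TCF7, wild-type replicate 3 was the highest library and knockout replicates 2 and 3 were the lowest.

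The direction of the small estimates depended on the settings for some genes. TCF7, LEF1 and TLE4 stayed below 0 and TCF7L2 above 0 in all 16 alternatives, and no alternative called any of the 9. TLE1, TLE3, BCL9, BCL9L and PYGO2 changed sign under 2 to 5 of them. The correction for GC content moved each of the 9 estimates upward, as it moved the median of all tested genes from 0.00 to 0.02, and after it 6 of the 9 were above 0.

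**Figure D5:**
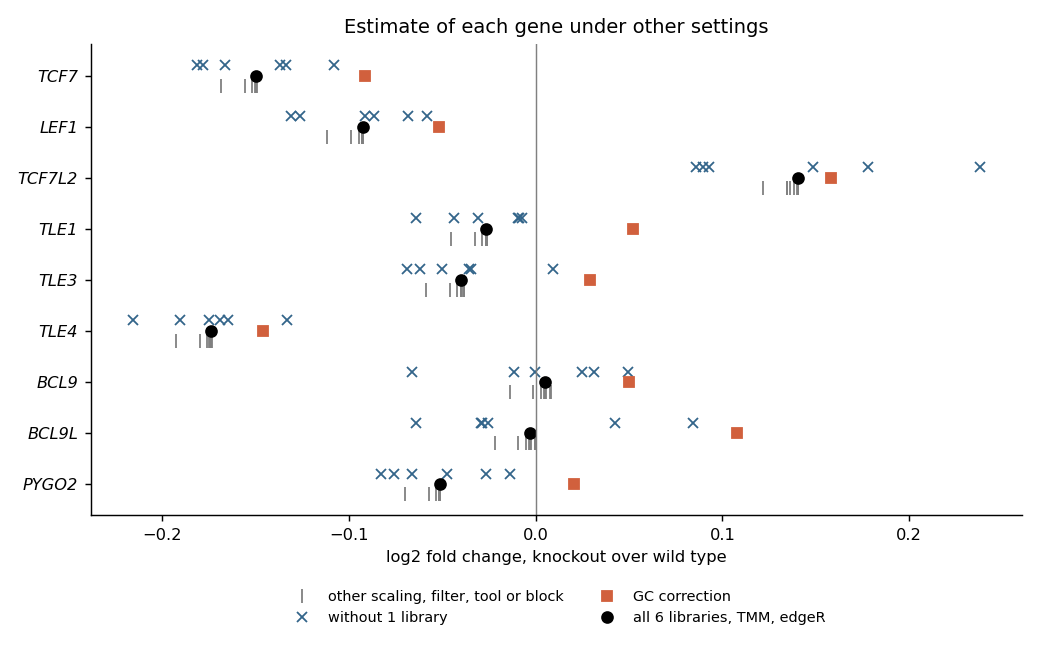
Log2 fold change of each tested gene (x axis, knockout over wild type) with all 6 libraries (black), after GC correction (orange), without 1 library at a time (blue crosses) and under other scalings, filters, tools or a replicate block (grey ticks). TCF7, LEF1 and TLE4 lie left of 0 and TCF7L2 right of 0 at every setting, while the other 5 genes fall on both sides.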

How the data were processed

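RNA of 6 RKO libraries was analysed. Per the files, the authors deposited raw counts by gene symbol in 1 table for each library. The submitters' processing notes name hg38 as the build and list TopHat, limma and edgeR. What program counted the reads, on which annotation and with which strand setting, is not given in the sources used here. Blank or total rows numbered 0. Groups came from the sample titles.

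The deposited counts went into edgeR 4.0.16 (R 4.3.3): filterByExpr (minimum count 10, minimum total 15), TMM scaling, a robust quasi-likelihood fit with group as the only term, and Benjamini-Hochberg adjustment over all 14409 tested genes at 0.05. Standard errors and 95% intervals of log2 fold changes came from the F statistic. Alternatives were other scalings and filters, a replicate block, each library left out, DESeq2 1.42.0, limma-voom (limma 3.58.1), non-robust estimation and a GC correction (spline, 5 degrees of freedom). Symbols were matched to GENCODE 29 (26216 of 28278) for coordinates, lengths and GC content, and promoter windows came from RefSeq. The fits were tested on simulated data. Library pairs within a group differed by more than sampling noise (chi-square per degree of freedom 3.11 to 9.30), so each counted as 1 replicate.

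The members and lists were chosen with earlier results of these data known. The naming rule took all members, GSK3B, CTNNB1 and up to 4 called genes with the largest change from each other list, plus the 3 genes most like the member with the smallest adjusted p. Named outside it, after their values were seen, are markers, genes that share exon positions with members, TLE2, TLE5, PYGO1, EPHB2, MYC, NKD1, untested targets and 4 coactivators called after GC correction.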

Additional observations from a re-analysis of the deposited data

How the results depend on the processing

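The count of members called was 0 under all 16 alternatives, and GSK3B was called lower under each. All genes called numbered 3043 after GC correction and 3062 with GC correction and replicate block (1951 without), with 1977 higher and 1066 lower after the former and 649 higher and 1229 lower with library size alone. The count ran from 950 to 2531 when 1 library was left out. Called coactivators numbered 4 after GC correction, with or without the block, 2 with the replicate block alone and 0 to 2 without 1 library. Called corepressors numbered 1 to 6 and called targets 4 to 8 without 1 library. Whether replicate numbers pair the libraries could not be decided, since deviations were centred within groups of 3 libraries. Their correlations were 0.07, 0.00 and 0.03 for same-numbered pairs and ran from -0.08 to 0.05 for the other pairs. Of 3 wild-type libraries 2 correlated best with their own number. With the replicate block 2193 genes were called.

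Signs of uncalled estimates turned as follows on the log2 scale. After GC correction, and with GC correction and replicate block, TLE1 stood at 0.0520 and 0.0523, TLE3 at 0.0290 and 0.0293, BCL9L at 0.108 and 0.108, and PYGO2 at 0.0205 and 0.0197. BCL9 stood at -0.0138 with library size alone and at -0.0011 with a filter of 1 CPM in 3 libraries. Without 1 library BCL9 ran from -0.0663 to 0.0492, BCL9L from -0.0639 to 0.0845 and TLE3 from -0.0689 to 0.00958. The cause of these changes was not tested. Differences in family shares between the genotypes moved by less than the spread between libraries (the larger group SD) under each alternative. For LEF1, TLE3, BCL9, BCL9L and PYGO2 that spread was larger than the difference itself, whose sign turned without 1 library. The LEF1 difference, for example, went from -1.31 to 0.04 percentage points without knockout replicate 1. With the union of exons as the length the shares themselves moved further, TLE1 from 38.1% to 44.3% and TLE3 from 48.5% to 43.9% in wild type. TCF7L1 did not pass the filter on low counts, and among the other members depth limits TLE4 most.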
